A study of Homo sapiens with 7 samples.

Results

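The replication-dependent histone genes were followed in 6 oligo-dT primed 3' mRNA libraries of HCT116 DROSHA-KO cells. The genes were taken by symbol, as the linker histones H1-1 to H1-6 and every H2AC, H2BC, H3C and H4C gene followed by a number. Of 15659 gene symbols listed in at least 1 library, 33 were of this kind. HCT116 is a human colorectal carcinoma line, and the line used here carries a knockout of DROSHA, which starts microRNA processing in the nucleus. One group of 3 libraries came from knockout cells transfected with miR-148a-3p, and the other group of 3 libraries from knockout cells transfected with a control miRNA, both harvested 48 h after transfection. The knockout is therefore shared by all 6 libraries, and whether it is a single clone is not stated. Nothing in the labels says that replicates came from separate cultures, so the p-values here reflect the spread among libraries only, and that spread may be technical.

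Replication-dependent histone genes supply the histones that package newly made DNA, and they are switched on together in S phase. Their messenger RNAs are the known exception to polyadenylation in animal cells: they end in a conserved stem-loop that is bound by the protein SLBP, and U7 snRNP directs the cut behind it. Some of these genes can also give polyadenylated transcripts that read past the stem-loop, a form known mainly from cells that leave the cell cycle. Variant histones made outside S phase come from ordinary polyadenylated messenger RNAs. An oligo-dT primer needs a run of A in the RNA, so the comparison asks which histone genes are counted at all in such libraries, and whether miR-148a-3p changes them.

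The microRNA that was transfected is given as its mature RefSeq sequence (GRCh38.p14, chr7:25949922-25949943, minus strand), with the seed, bases 2 to 8, in capitals, because the seed sets which messenger RNAs it pairs with.
hsa-miR-148a-3p: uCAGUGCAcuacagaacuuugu

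The miR-148a-3p libraries held 630142 to 1564125 counts, and the control libraries 876131 to 1069154 counts. DROSHA itself was counted 20, 15 and 13 times with miR-148a-3p and 31, 16 and 16 times in controls. A 3' read outside the altered part of the gene does not check the knockout, which both groups carry. Of 10 colon epithelium markers 8 were counted, summing to 1022 to 2740 reads per library with miR-148a-3p and 1473 to 2069 in controls, with KRT20 and CDX1 at 0. Of the 5 that were tested 0 passed with edgeR and 1 had an unadjusted p below 0.05, KRT8, at a log2 fold change of −0.55 (SE 0.21), beside −0.68 (SE 0.36) for CDX2, −0.15 (SE 0.16) for KRT18 and 0.26 (SE 0.41) for EPCAM. Of 8 blood cell markers 2 were counted, with 0 reads in each miR-148a-3p library and at most 3 in a control library, and the leukocyte marker PTPRC was at 0 in all 6. Of 8 fibroblast and endothelial markers 4 were counted, at 28 to 78 reads with miR-148a-3p and 34 to 85 in controls, of which COL1A1 gave 27 to 74 with miR-148a-3p and 32 to 83 in controls (log2 fold change −0.31, SE 0.31).

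Histone genes were counted in every library, but the reads came mostly from a pair of them. The 33 genes held 10800 of 5872695 reads (0.184%), and H4C3 and H1-2 together held 85.2% of those. RefSeq lists 69 gene symbols that fit the same rule. Of the other 36, 1 (H2AC25) was listed under its older name H2AW with 42 reads and is outside the rule, and 35 had no read. By class, symbols of the rule with no listed count numbered 3 of 6 for H1, 9 of 17 for H2A, 8 of 18 for H2B, 7 of 13 for H3 and 9 of 15 for H4. A count of 0 over all 6 libraries allows up to 0.511 CPM (reads scaled to the library total), taken as 3 counts and covering counting error only. Multi-copy genes are a limit here: the handling of reads that map to more than 1 histone gene is not given in the sources used here, and such reads could have been dropped, split or given to another copy.

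Detection was shallow for most of the genes. In the miR-148a-3p libraries 25, 24 and 20 of the 33 genes had at least 1 read, and in the control libraries 22, 20 and 23. The numbers of the groups overlapped. With at least 5 reads required, 14, 14 and 11 genes remained with miR-148a-3p and 13, 10 and 10 in controls. Only 13 genes had a read in all 6 libraries, and 5 had reads in 1 library. Of the 33 genes 20 had at least 10 reads in all, and the other 13 shared 43 reads, the highest of them H2BC18 with 8.

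**Figure D1:**
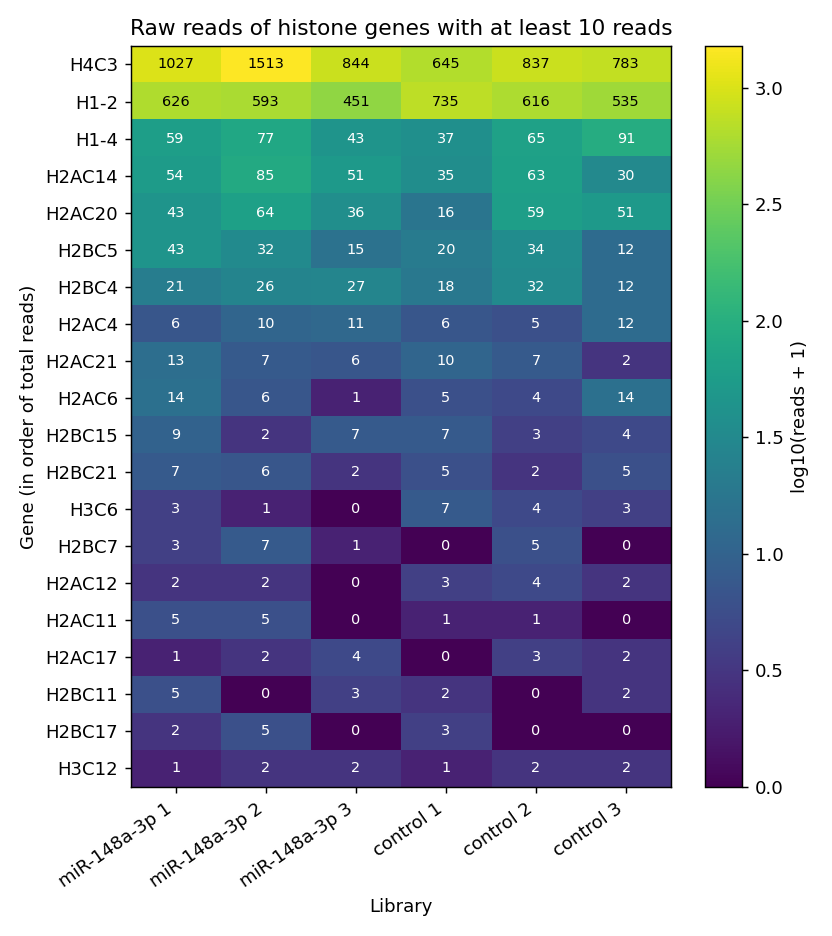
Raw reads of the 20 histone genes with at least 10 reads (rows, in order of total reads) in the 3 miR-148a-3p and the 3 control libraries (columns); colour is log10(reads + 1) and the number in each cell is the read count. H4C3 and H1-2 lie between 451 and 1513 reads, the next 5 genes lie between 12 and 91, and the rest stay at or below 14.

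Among core histones, H4 stood out. H4C3 encodes histone H4, the partner of H3 in the central tetramer of the nucleosome, and lies on chromosome 6 at chr6:26103933-26104337 (GRCh38.p14). It was counted 1027, 1513 and 844 times in the miR-148a-3p libraries and 645, 837 and 783 times in the control libraries. H4C3 ranked 194, 47 and 73 among all listed genes by reads in the miR-148a-3p libraries, and 214, 124 and 133 in the controls. It held 99.7% of the 5666 H4 reads. The 5 other H4 genes that were counted (H4C2, H4C5, H4C8, H4C9 and H4C11) shared 17 reads, and the remaining 9 of the 15 H4 symbols in RefSeq had none.

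H1-2 was the other abundant gene. It encodes a somatic linker histone, which binds DNA where it enters and leaves the nucleosome, and lies at chr6:26055740-26056470 on the minus strand. It was counted 626, 593 and 451 times with miR-148a-3p and 735, 616 and 535 times in controls, and made up 90.5% of H1 reads. H1-4, another somatic linker histone, had 59, 77 and 43 reads with miR-148a-3p and 37, 65 and 91 in controls. The testis linker histone H1-6 had 1 read in all, and H1-1, H1-3 and H1-5 had 0.

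H2A reads were spread over more genes. H2A and H2B form the dimers that flank the tetramer in a nucleosome. H2AC14 led the H2A class with 54, 85 and 51 reads with miR-148a-3p and 35, 63 and 30 in controls, followed by H2AC20 with 43, 64 and 36 reads with miR-148a-3p and 16, 59 and 51 in controls. The remaining H2A genes, H2AC4, H2AC21, H2AC6, H2AC12, H2AC11 and H2AC17, had 50, 45, 44, 13, 12 and 12 reads over all libraries. In the H2B class H2BC5 had 43, 32 and 15 reads with miR-148a-3p and 20, 34 and 12 in controls. H2BC4 had 21, 26 and 27 reads with miR-148a-3p and 18, 32 and 12 in controls. H2BC15, H2BC21, H2BC7, H2BC11 and H2BC17 followed with 32, 27, 16, 12 and 10 reads over all libraries. H2BC18 had 1, 2 and 5 reads with miR-148a-3p and 0 in each control library, too few to pass the count filter of the test. H2BC6 and H2BC12 had 2 reads and 1 read.

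H3 reads were few. The 6 H3 genes that were counted had 42 reads in all, 0.389% of the histone reads. H3 and H4 proteins are present in equal numbers in a nucleosome, but these RNA counts do not measure protein. H3C6 had 3, 1 and 0 reads with miR-148a-3p and 7, 4 and 3 in controls. H3C12 had 10 reads in all, and H3C10, H3C2, H3C13 and H3C1 had 7, 4, 2 and 1. H4 genes held 52.5% of all histone reads, H1 genes 36.4%, H2A genes 7.06% and H2B genes 3.70%. Without H4C3 the H4 genes had 17 reads.

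**Figure D2:**
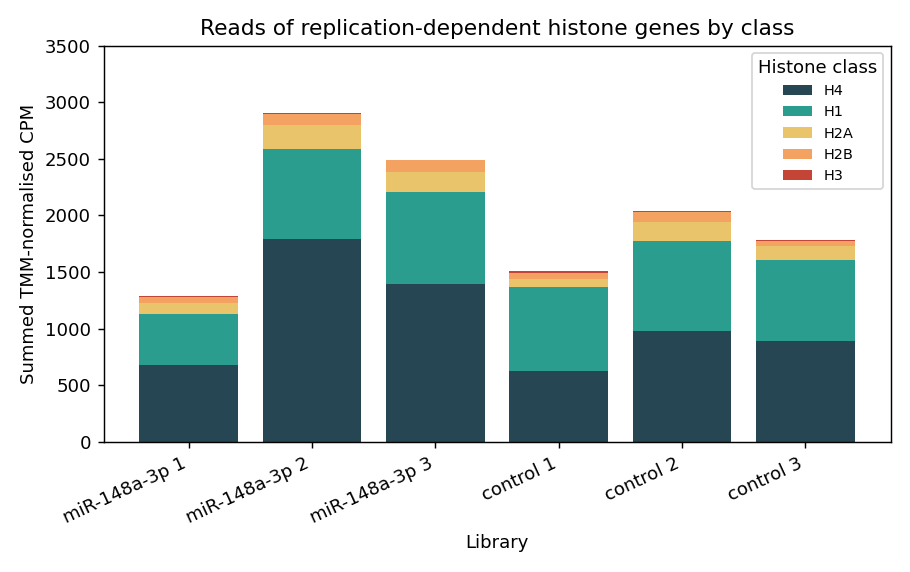
Summed TMM-normalised CPM of the replication-dependent histone genes in each library, stacked by class, with the 3 miR-148a-3p libraries left of the 3 control libraries. H4 and H1 make up most of every bar, H3 is barely visible, and the sums reach 2902 CPM in miR-148a-3p replicate 2 but 1287 CPM in miR-148a-3p replicate 1.

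The genes counted most were not those with the longest annotated span. RefSeq gives 8 of the genes a span over 1000 bases: H2BC4, H2BC5, H2BC12, H2BC18, H2BC21, H3C4, H3C6 and H4C15. Reads were found for 6 of these 8 genes, against 27 of the 60 with a shorter span (H2AC25 left out). The long genes held 346 reads in all and the short ones 10454, of which H4C3 (405 bases) and H1-2 (731 bases) gave the most. The median gene went the other way, with 13 reads for the long genes and 0 for the short ones. At least 10 reads were found for 4 of the 8 long genes and 16 of the 60 short ones. By place, the cluster of 34 genes at chr6:25726063-26285534 held 10012 reads over 16 counted genes. The cluster of 21 genes at chr6:27132316-27893891 held 437 reads over 12 counted genes, and the cluster of 11 genes at chr1:149782689-149887965 held 351 reads over 5.

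Many H2A and H2B genes sit head to head and share 1 promoter region, and the counts of such partners are set side by side here. These counts do not measure promoter output. They also depend on a run of A in the RNA and on the unstated handling of reads that map to several genes. Among the 64 histone genes with a strand and start in the RefSeq promoter table, 11 H2A and H2B pairs lay on opposite strands, 194 to 248 bases apart. In 4 pairs both genes had reads, in 4 pairs 1 gene had reads (H2AC25 under its older name among them), and in 3 pairs neither had. The partners were often far apart: H2AC14 had 318 reads and H2BC14 had 0, and H2AC20 had 269 reads and H2BC21 had 27. The H2A gene had more reads in 4 pairs and the H2B gene in 3, and 4 pairs were equal, 3 of them at 0. The pairs with more H2B reads were H2AC6 and H2BC4 (44 and 136 reads), H2AC15 and H2BC15 (0 and 32) and H2AC7 and H2BC7 (0 and 16). H2AC11 and H2BC11 had 12 reads each.

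**Figure D3:**
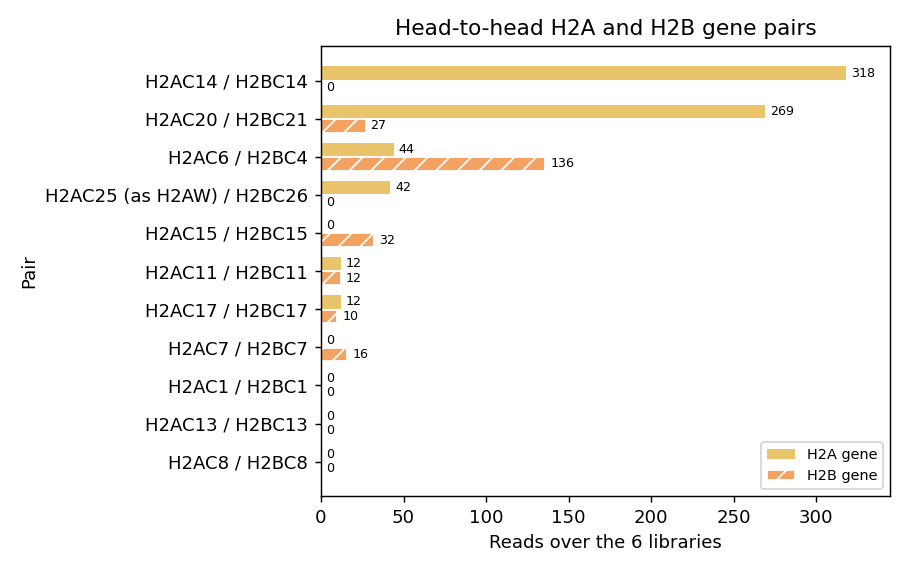
Reads over the 6 libraries for the H2A gene (plain bars) and the H2B gene (hatched bars) of the 11 pairs in the RefSeq promoter table that start head to head within 248 bases of each other; H2AC25 is counted under its older name H2AW. H2AC14 and H2AC20 stand far above their H2B partners, and 3 pairs have no reads on either side.

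The 250 bases before the RefSeq start (GRCh38.p14) are shown for H1-2, the most abundant linker histone gene, for H2AC14 and for H2AC20. H2AC14 and H2AC20 are the H2A genes of the pairs that differed most in number of reads. H4C3 had no entry in the RefSeq promoter table. Capitals mark the letters CCAAT (bound by the factor NF-Y), TATAAA (the TATA box) and ATTTGCAT (the octamer bound by POU2F1), on either strand. The first lies at chr6:26056471-26056720 on the minus strand, the next at chr6:27814778-27815027 on the minus strand and the last at chr1:149886668-149886917 on the plus strand.
H1-2: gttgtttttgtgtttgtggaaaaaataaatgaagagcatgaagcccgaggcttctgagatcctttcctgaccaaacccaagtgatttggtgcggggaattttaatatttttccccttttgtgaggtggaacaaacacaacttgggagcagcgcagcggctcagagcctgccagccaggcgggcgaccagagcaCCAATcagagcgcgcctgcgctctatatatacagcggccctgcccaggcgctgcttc
H2AC14: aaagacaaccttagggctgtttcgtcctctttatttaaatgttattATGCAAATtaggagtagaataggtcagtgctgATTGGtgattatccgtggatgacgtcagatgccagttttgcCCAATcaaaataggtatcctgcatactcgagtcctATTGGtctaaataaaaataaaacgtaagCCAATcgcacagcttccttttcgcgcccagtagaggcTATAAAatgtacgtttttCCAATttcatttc
H2AC20: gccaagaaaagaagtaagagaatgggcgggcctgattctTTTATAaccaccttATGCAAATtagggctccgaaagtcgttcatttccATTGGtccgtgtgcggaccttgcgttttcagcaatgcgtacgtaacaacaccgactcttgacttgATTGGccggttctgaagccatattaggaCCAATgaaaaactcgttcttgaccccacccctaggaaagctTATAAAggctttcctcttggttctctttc

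In these windows H1-2 had 1 match, a CCAAT 57 bases before the start. H2AC14 had 5 CCAAT matches, a TATAAA 31 bases before the start and an octamer 204 bases before it, near the start of H2BC14, its partner with 0 reads. H2AC20 had 3 CCAAT matches, TATAAA at 29 and at 211 bases and an octamer at 197 bases. Among the 64 genes with a promoter in the RefSeq table, 84.4% held CCAAT, 65.6% TATAAA and 40.6% the octamer, against 33.0%, 11.1% and 1.66% of all 27305 promoters of the same length. The octamer was found in 77.8% of H2B and 68.8% of H2A promoters, in 1 of the 11 H3 promoters and in 0 of the 6 H1 and 0 of the 13 H4 promoters. The octamer share of any set of these genes therefore depends on the classes in it. Promoters of the 30 genes with reads held CCAAT in 86.7%, TATAAA in 73.3% and the octamer in 50.0%, against 81.8%, 60.6% and 33.3% of the 33 promoters of genes without reads. Since H2A and H2B partners share their stretch of DNA, their promoters are not separate cases. The letters are matches in a window and no measured sites.

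With miR-148a-3p no histone gene changed past the threshold. The test was edgeR's quasi-likelihood test with Benjamini-Hochberg adjustment over the 8921 genes that passed a count filter, at an adjusted p below 0.05. Of the 33 histone genes 8 passed that filter, holding 97.3% of the histone reads. 0 of these 8 were called, where 0.0112% of all tested genes were. At an unadjusted p below 0.05 there was 1, H4C3, where 6.79% of all genes were. DESeq2, which gave an adjusted p for 2 of the 8, called 0 with 0 at an unadjusted p below 0.05, and limma-voom called 0 with 1. Without the count filter edgeR tested all 33 and called 0, with 3 at an unadjusted p below 0.05. With the replicate number as a block it called 0 of the 8, with 2. In bulk libraries such as these, a change in the number of S phase cells and a change in histone RNA per cell cannot be told apart.

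H4C3, the gene with the most reads, had a fitted value above 0. On the scale of TMM-normalised CPM it reached 677, 1790.1 and 1389.5 CPM with miR-148a-3p and 621, 977 and 891 CPM in controls. Replicates 2 and 3 with miR-148a-3p were above every control library, and replicate 1 was below control replicates 2 and 3, so the groups overlapped. The means were 1286 ± 564 CPM with miR-148a-3p and 829 ± 185 CPM in controls (SD, n = 3), which edgeR fitted as a log2 fold change of 0.63 (SE 0.23, adjusted p = 0.593). Of all tested genes 4.70% had a log2 fold change at least as high. Without replicate 1 of both groups, a choice made after seeing the data, H4C3 was called, at a log2 fold change of 0.77 (adjusted p = 0.0286 with edgeR). In that setting 27 of 8975 tested genes were called, against 1 of 8921 with all 6 libraries. The libraries left out held the lowest H4C3 value of each group, so this call is not separate support. With 1 library left out at a time the edgeR adjusted p of H4C3 ran from 0.0764 to 0.998.

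H1-2, the other abundant gene, had a fitted value below 0. It lay at 413, 702 and 742 CPM with miR-148a-3p and at 708, 719 and 609 CPM in controls. The lowest value was that of miR-148a-3p replicate 1, while all 3 control libraries lay close together. Its means were 619 ± 180 CPM with miR-148a-3p and 678 ± 60.7 CPM in controls (SD, n = 3), which edgeR fitted as −0.14 on the log2 scale (SE 0.19, adjusted p = 0.918). That value turned to 0.09 without miR-148a-3p replicate 1.

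For each of the 6 less abundant genes that were tested, the group means differed by less than the larger of their replicate SDs. H2AC14 lay at 35.6, 101 and 84.0 CPM with miR-148a-3p and at 33.7, 73.5 and 34.1 CPM in controls, or 0.61 on the log2 scale (SE 0.34, adjusted p = 0.746 with edgeR). Replicates 2 and 3 with miR-148a-3p were above all controls and replicate 1 was not. H1-4 averaged 66.9 ± 26.3 CPM with miR-148a-3p and 71.7 ± 34.1 CPM in controls, and H2AC20 averaged 54.4 ± 24.1 CPM with miR-148a-3p and 47.4 ± 28.2 CPM in controls (SD, n = 3), with log2 fold changes of −0.12 (SE 0.32) and 0.17 (SE 0.39). H2BC5, H2BC4 and H2AC4 had log2 fold changes of 0.34 (SE 0.39), 0.31 (SE 0.44) and 0.29 (SE 0.64), with edgeR adjusted p from 0.904 to 0.948. With standard errors of 0.32 to 0.64, these tests do not show that the levels were alike.

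**Figure D4:**
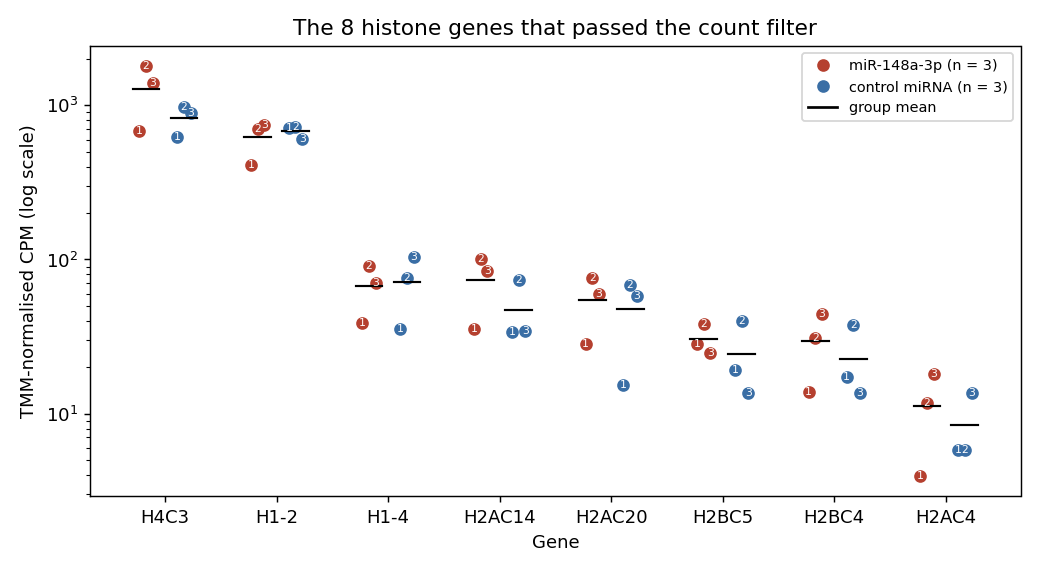
TMM-normalised CPM (log scale) of the 8 histone genes that passed the count filter; points are libraries, numbered by replicate, with miR-148a-3p left of the control miRNA, and black lines are group means of 3 libraries. The points of the groups overlap for each gene, and replicate 1 is the lowest miR-148a-3p point for 7 of the 8.

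Across the 8 tested genes 6 had a higher and 2 a lower fitted value, with a median log2 fold change of 0.30, where all tested genes had a median of −0.0039 and 49.5% higher values. For 0 of the 8 did all miR-148a-3p libraries lie above every control library, where 6.22% of all tested genes did, and for 0 did they all lie below, where 6.59% did. The 25 genes that did not pass the filter had 162 reads with miR-148a-3p, of 3036561 in that group, and 132 in controls, of 2836134.

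Summed over the 33 genes, the histone reads of the groups overlapped. They made up 0.125%, 0.291% and 0.240% of counts in the miR-148a-3p libraries (Wilson 95% intervals 0.119% to 0.131%, 0.280% to 0.303% and 0.228% to 0.252%). In the control libraries they made up 0.146%, 0.200% and 0.176% (0.139% to 0.154%, 0.190% to 0.209% and 0.168% to 0.185%). The highest shares were those of miR-148a-3p replicates 2 and 3, and the lowest was miR-148a-3p replicate 1. The intervals cover counting error only. The summed level was 2227 ± 839 CPM with miR-148a-3p and 1777 ± 266 CPM in controls (SD, n = 3), a ratio of 1.25. Without H4C3 the ratio was 0.994, and without both H4C3 and H1-2 it was 1.2.

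Within a library the reads of H4C3 and H1-2 can be compared with no scaling between libraries. There were 1.64, 2.55 and 1.87 H4C3 reads per H1-2 read with miR-148a-3p, against 0.878, 1.36 and 1.46 in controls. Every miR-148a-3p library was above every control library, which was also so for 6.22% of all tested genes taken singly. The means were 2.02 ± 0.473 with miR-148a-3p and 1.23 ± 0.311 in controls (SD, n = 3), 1.64 times as high with miR-148a-3p. H4C3 made up 52.6%, 61.7% and 55.8% of the histone reads with miR-148a-3p and 41.2%, 47.9% and 49.9% in controls, while H1-2 made up 32.1%, 24.2% and 29.8% with miR-148a-3p and 47.0%, 35.2% and 34.1% in controls. The shares sum to a whole, so they are not separate results. This ratio was looked at after the values of both genes had been seen, and 3 libraries against 3 cannot give an exact two-sided permutation p below 0.1, so no test was made.

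The H3 reads, few as they were, lay the other way. They numbered 7, 5 and 2 with miR-148a-3p and 13, 7 and 8 in controls, which is 4.61 ± 1.31 CPM with miR-148a-3p and 9.93 ± 2.29 CPM in controls (SD, n = 3). In CPM each miR-148a-3p library was below each control library, which was also so for 6.59% of all tested genes taken singly. The sum rests on 14 reads with miR-148a-3p and 28 in controls, and it was singled out after its values were seen. No H3 gene passed the count filter. H2A genes summed to 162 ± 63.5 CPM with miR-148a-3p and 124 ± 48.7 CPM in controls, and H2B genes to 84.7 ± 20.9 CPM with miR-148a-3p and 61.2 ± 24.7 CPM in controls, with overlap between groups in both classes.

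Replicate 1 was low in both groups. Among the 8 tested genes it was the lowest of its group for 7 with miR-148a-3p and for 5 in controls, and for the same 5 in both. Of all tested genes 31.2% had their lowest miR-148a-3p value and 37.0% their lowest control value in replicate 1, and 13.7% had both. Each replicate 1 library was also the deepest of its group, with 1564125 counts with miR-148a-3p and 1069154 in controls. Genes of the G1/S transition and of DNA replication were low in the same libraries. Their mean log2 difference from the 6-library mean was −0.296, 0.362 and 0.365 with miR-148a-3p and −0.447, 0.077 and −0.061 in controls, and that of the 8 histone genes was −0.583, 0.555 and 0.461 with miR-148a-3p and −0.603, 0.274 and −0.104 in controls. The part of depth or of cell cycle genes in the low histone values of replicate 1 was not tested.

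**Figure D5:**
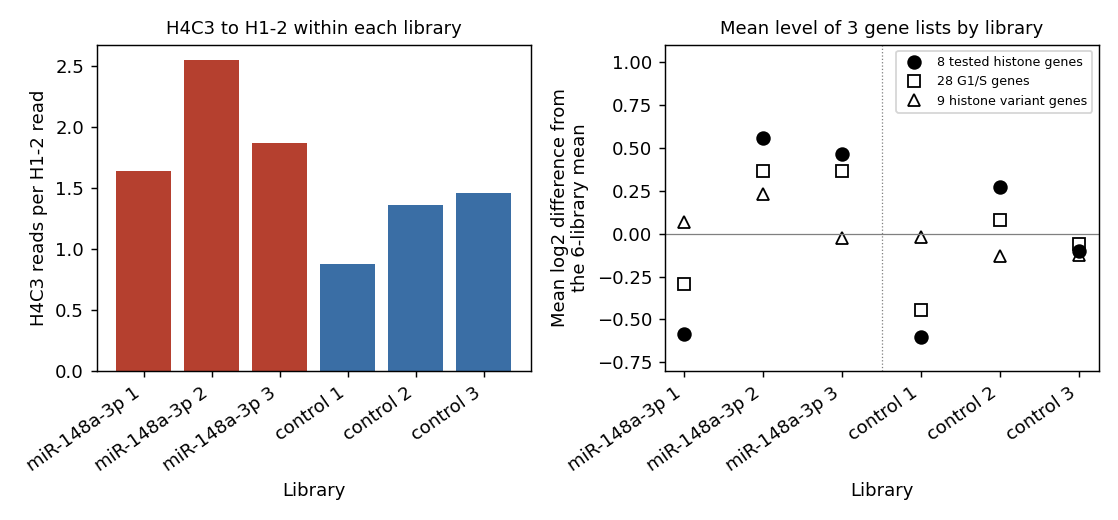
Left, H4C3 reads per H1-2 read in each library, miR-148a-3p (red) left of the control miRNA (blue). Right, mean log2(CPM + 1) of the 8 tested histone genes, 28 tested G1/S genes and 9 tested histone variant genes. Each is given as the difference from its mean over the 6 libraries. The ratio ran from 1.64 to 2.55 with miR-148a-3p and from 0.878 to 1.46 in controls. It was chosen after the values of both genes had been seen and was not tested. Replicate 1 has the lowest value of its group for the histone and the G1/S genes.

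The list of G1/S and replication genes had 0 of 28 tested genes past the threshold, 20 higher and 8 lower, with a median log2 fold change of 0.28. At an unadjusted p below 0.05 there were 4 of the 28, where 6.79% of all tested genes were, and 49.5% of all tested genes were higher. TK1, the thymidine kinase of S phase, was at 201 ± 86.6 CPM with miR-148a-3p and 107 ± 25 CPM in controls (log2 fold change 0.89, SE 0.27, edgeR adjusted p = 0.398). MCM2, a subunit of the replicative helicase, had 0.91 (SE 0.31), CDT1, which loads that helicase, 0.72 (SE 0.26) and MCM6, another subunit, 0.65 (SE 0.31), with edgeR adjusted p from 0.504 to 0.725.

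The histone variant genes, whose messenger RNAs are polyadenylated, were counted more often than the replication-dependent genes. Of 11 listed genes 10 were counted, and together they had 19558 reads against the 10800 of the replication-dependent genes. Their sum was 3577 ± 145 CPM with miR-148a-3p and 3273 ± 229 CPM in controls (SD, n = 3). Of the 9 tested, 7 were higher and 2 lower, 0 passed with edgeR and 0 had an unadjusted p below 0.05, where 6.79% of all tested genes did, with a median log2 fold change of 0.06. H3-3B, which encodes the replacement histone H3.3, was at 1148 ± 24.6 CPM with miR-148a-3p and 1099.8 ± 170 CPM in controls (log2 fold change 0.06, SE 0.16). It had 6407 reads over all libraries, against 42 for the H3C genes together. H2AZ1, the H2A.Z variant gene, was at 1027 ± 158 CPM with miR-148a-3p and 825 ± 214 CPM in controls (log2 fold change 0.31, SE 0.19, edgeR adjusted p = 0.767). H2AJ, another H2A variant gene, had a log2 fold change of 0.79 (SE 0.51), CENPA, the centromere H3, had 0.40 (SE 0.35) and MACROH2A1, which encodes a macroH2A, had −0.16 (SE 0.23). H3-3A, the other H3.3 gene, had 16 reads and did not pass the count filter. H2AX, which is made both with a stem-loop and with a poly(A) tail, was at 126 ± 14.4 CPM with miR-148a-3p and 107 ± 22.0 CPM in controls (log2 fold change 0.23, SE 0.22, edgeR adjusted p = 0.885).

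Genes that make and use histone messenger RNA showed no call. Of 20 genes of histone messenger RNA processing and transcription 18 were tested, 9 higher and 9 lower, with 0 past the threshold and 2 at an unadjusted p below 0.05, the level that 6.79% of all tested genes reached. SLBP, the stem-loop binding protein, was at 35.3 ± 13.6 CPM with miR-148a-3p and 33.4 ± 9.92 CPM in controls (log2 fold change 0.04, SE 0.36), and it is in the G1/S list as well. CSTF2, a cleavage factor that also takes part in histone 3' end formation, was at 35.6, 43.8 and 47.7 CPM with miR-148a-3p and at 18.3, 25.7 and 12.5 CPM in controls. Its groups did not overlap, with 1.15 on the log2 scale (SE 0.36, adjusted p = 0.401 with edgeR). LSM10, a protein of the U7 snRNP ring, was at 16.5, 16.6 and 16.5 CPM with miR-148a-3p and at 5.78, 9.33 and 6.83 CPM in controls, again without overlap (log2 fold change 1.17, SE 0.53, edgeR adjusted p = 0.725). All miR-148a-3p libraries lay above every control library for 6.22% of all tested genes. LSM11, its ring partner, had −0.42 (SE 0.34), and CPSF3, the endonuclease that makes the cut, had −0.34 (SE 0.26). Of 21 histone chaperones 19 were tested, 8 higher and 11 lower, with 0 past the threshold. At an unadjusted p below 0.05 there were 2, against the 6.79% of all tested genes: CHAF1A, the large subunit of chromatin assembly factor 1, at 0.63 (SE 0.24), and SPTY2D1, an H3-H4 chaperone, at −0.74 (SE 0.26), with edgeR adjusted p of 0.622 and 0.542. ASF1B and RBBP7, which also bind H3 and H4, had 0.55 (SE 0.29) and 0.39 (SE 0.21).

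Other RNAs that are known to be made without a poly(A) tail were counted too. Of 22 such RNAs listed, 14 had reads. RNU4ATAC, the U4atac spliceosomal RNA, had 17005 of their 17736 reads, more than all replication-dependent histone genes together. It lies within another gene, and without a stated use of strand the reads of overlapping genes cannot be told apart. RN7SL1, the RNA of the signal recognition particle, was at 31.6, 110 and 64.2 CPM with miR-148a-3p and at 17.3, 36.2 and 35.3 CPM in controls (log2 fold change 1.19, SE 0.37, edgeR adjusted p = 0.401). TERC, the telomerase RNA, was at 52.1, 93.5 and 59.3 CPM with miR-148a-3p and at 37.6, 72.3 and 46.6 CPM in controls (0.39, SE 0.29, edgeR adjusted p = 0.839). RN7SL1 and TERC were lowest in replicate 1 of each group, as H4C3 was. RNU4ATAC was lowest in replicate 1 with miR-148a-3p and highest in replicate 1 of the controls, at 2471, 4257 and 2712 CPM with miR-148a-3p and 3976, 2408 and 2069 CPM in controls.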

How the data were processed

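The authors deposited 1 table per library with a raw, unscaled read count for each gene symbol; a symbol that a table did not list was read as 0. Per the labels' protocols, libraries started from 500 ng of total RNA with an oligo-dT primer. The submitters' processing notes name cutadapt, STAR, Bowtie2 and GRCh38. How each was used, and which counter, annotation and strand setting applied, is not given in the sources used here. Small RNA reads were not used here.

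Tests used edgeR 4.0.16 under R 4.3.3, with TMM, filterByExpr by group, a quasi-likelihood F test and group as the only term. A positive log2 fold change means higher with miR-148a-3p. List means used log2(CPM + 1). Replicates of a group differed by 2.52 to 5.30 times Poisson variance (chi-square per degree of freedom), so none agreed within sampling noise. Named were histone genes that passed the filter or had at least 10 reads, the highest below that, and up to 4 tested genes per list by smallest p, plus H2AX, SLBP, H2AZ1, H3-3A and H3-3B. Members and lists were chosen with earlier results of these data known. Spans, promoters and the microRNA are from RefSeq tables of GRCh38.p14, which held all 33 genes and 30 of their promoters. Alternatives were RLE size factors, no count filter, DESeq2 1.42.0, limma-voom (limma 3.58.1), the replicate number as a block and leaving out libraries. The test was checked on simulated data. Intervals came from scipy 1.17.1.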

Additional observations from a re-analysis of the deposited data

How the results depend on the processing

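With edgeR, 1 gene of all tested was called as reported, 18 without the count filter, 7 with DESeq2, 3 with limma-voom and 27 without replicate 1 of both groups. With the replicate number as a block 3 genes were called. The labels do not say whether same-numbered libraries are paired, and these correlations cannot decide it. Deviations of same-numbered libraries correlated at 0.133, 0.093 and −0.00185, and those of differently numbered libraries at −0.133 to 0.0274. The block added 0 histone calls. Leaving out 1 library gave 1 to 26 called genes, with 26 without control replicate 1 and 2 without miR-148a-3p replicate 3. Histone genes called were 0 under each alternative except without replicate 1 of both groups, which gave 1 (H4C3, 0.77, edgeR adjusted p = 0.0286); the cause was not tested. DESeq2 gave no adjusted p for 6 of the 8. H4C3 stayed between 0.31 and 0.94 with 1 library left out, with edgeR adjusted p from 0.0764 to 0.998. Log2 fold changes crossed 0 with 1 library left out, from −0.29 to 0.09 for H1-2, −0.47 to 0.25 for H1-4, −0.28 to 0.55 for H2AC20, −0.08 to 0.85 for H2BC4 and −0.18 to 0.83 for H2AC4. Signs turned for H1-2 (0.09 without miR-148a-3p replicate 1 and 0.12 without replicate 1 of both groups), H1-4 (0.20 without miR-148a-3p replicate 1, 0.25 without control replicate 3), H2AC20 (−0.17 without miR-148a-3p replicate 2, −0.28 without control replicate 1), H2BC4 (−0.08 without miR-148a-3p replicate 3) and H2AC4 (−0.18 without miR-148a-3p replicate 3, −0.09 with limma-voom). The summed histone ratio of 1.25 ranged from 1.06 to 1.52 with 1 library left out, and was 1.41 without replicate 1 of both groups. It was 0.994 without H4C3 and 1.2 without H4C3 and H1-2. The number of genes counted at 5 reads (14, 14 and 11 with miR-148a-3p, 13, 10 and 10 in controls) was below that at 1 read. Thinned to the smallest library, 20.2, 22.8 and 20 genes would be counted with miR-148a-3p and 20.1, 18.9 and 20.8 in controls. With under 10 reads for 13 of the 33 genes, depth limits any statement on them.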

Other observations

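The pseudogenes H2BC19P and H2BC20P, outside the symbol rule, had 81 and 51 reads, more than most H2B genes. H2BC19P had 16, 7 and 9 reads with miR-148a-3p and 32, 6 and 11 in controls. H2BC20P had 5, 9 and 9 reads with miR-148a-3p and 17, 5 and 6 in controls. H2AW, the older name of H2AC25, had 9, 6 and 0 reads with miR-148a-3p and 2, 11 and 14 in controls. They were not tested as members. Reads of these loci may be shared with near-identical histone genes.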
